A study of Bos taurus with 20 samples.

Results

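The genes described here are the 7 subunits of respiratory complex I that are encoded by the mitochondrial genome: ND1, ND2, ND3, ND4, ND4L, ND5 and ND6. They were chosen by symbol and Entrez identifier, not by their values, and make up 7 of the 37063 genes in the count tables and 7 of the 13 mitochondrially encoded mRNAs. Maternal whole blood was drawn on day 63 of pregnancy from 20 recipient cows, and the RNA of each was sequenced as 1 library. All cows belonged to 1 condition, so the comparisons were among genes, across cows, and against the birth weight (BW) of the calf, which was 45.0 ± 10.1 kg (SD, n = 20) and ranged from 30 to 72.5 kg. Every cow carried a single female foetus from an embryo produced in vitro with an oocyte of a beef donor and X-sorted semen. The study's methods describe the recipients as lactating dairy cows, whereas its list of data sets gives Angus as their breed. That list also gives their age, as a range that spans several years. Neither the age nor the parity of a single cow is given with its counts.

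Complex I takes electrons from NADH, passes them to ubiquinone and pumps protons across the inner mitochondrial membrane. Its mitochondrially encoded subunits form the core of the membrane arm, while the remaining subunits are encoded in the nucleus and imported. Both strands of the mitochondrial genome are transcribed into long precursors that are cut into single RNAs, mostly at the tRNAs between the genes, so the level of each mRNA depends on processing and decay as well as on transcription. ND6 is the only mRNA read from the strand opposite to the others. ND4L and ND4 overlap and stay together on 1 RNA, as do ATP8 and ATP6 of the ATP synthase.

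Total counts were between 24632077 and 39892111 per cow, with a median of 33412740. The 13 mitochondrial mRNAs took 1.31 to 1.79% of the counts (median 1.61%) and the 7 complex I mRNAs 0.266 to 0.379% (median 0.347%). Within the mitochondrial mRNA, the complex I genes made up 20.3 to 22.4% in every cow (median 21.3%). Of the blood cell marker lists, all 6 neutrophil, 6 T cell, 6 B cell, 8 platelet and 8 erythroid genes were counted and tested, with median summed levels of 3381, 684, 886, 973 and 128 CPM (counts scaled to a common library total), respectively. The natural killer cell genes had a median summed level of 178 CPM, the monocyte genes 396 and the eosinophil genes 58.8, of which 5 of 5, 4 of 5 and 1 of 5 passed the filter on low counts. The library of the cow that carried the 30 kg calf stood apart: it had the lowest total count and the lowest level of 6 of the 7 genes. Most results that rest on it are therefore given with and without this cow.

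ND1, a subunit next to the site where ubiquinone is bound, was the most abundant of the 7 genes. It had 881 CPM in the lowest cow, 1131 at the median and 1275 in the highest, after scaling by the trimmed mean of M-values (TMM). The lowest value was in the recipient of the 30 kg calf and the highest in the recipient of the 50 kg calf, and the other 19 cows lay within a 1.23-fold range. ND1 also had the smallest spread of the 7 genes over 20 cows, with a coefficient of variation (CV) of 6.91%. Without the recipient of the 30 kg calf its CV was 4.92%, beside 4.89% for ND4.

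ND2, ND4 and ND5 are the antiporter-like subunits that carry proton channels. ND2 had 251 CPM in the lowest cow, 320 at the median and 357 in the highest, which was the recipient of the 72.5 kg calf. ND4 had 500, 656 and 731 CPM, with the highest value in the recipient of the 40 kg calf. ND5, the longest of the 7 genes, had 570, 767 and 888 CPM, with the highest value in the recipient of the 47.4 kg calf. The recipient of the 30 kg calf was the lowest in all 3 genes, and the CVs were 8.12%, 7.27% and 8.85%, respectively (n = 20).

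ND3, ND4L and ND6 form the stretch of the membrane arm between the ubiquinone site and the antiporter-like subunits. ND3 had 106 CPM in the lowest cow, 139 at the median and 158 in the highest, and ND6 had 293, 403 and 491 CPM. Both were lowest in the recipient of the 30 kg calf. ND4L, the shortest and least abundant gene, had 40.1 CPM in the lowest cow, 52.8 at the median and 61.3 in the highest. Its lowest values were in the recipients of the 50 kg calf (40.1 CPM) and the 43 kg calf (41.1 CPM), followed by that of the 30 kg calf (43.0 CPM). ND4L varied most, with a CV of 10.7%, beside 8.48% for ND3 and 9.98% for ND6 (n = 20).

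In the recipient of the 30 kg calf the 7 genes were 19.2% (ND4L) to 27.3% (ND6) below the median of the other 19 cows. COX1, COX3, ATP6, ATP8, CYTB and both mitochondrial rRNAs were also lowest in this cow. ATP8, a small ATP synthase subunit, was 42.3% below the others. In this cow the interferon-induced genes MX2, DHX58 and ADAR were at 1600, 259 and 664 CPM, against 97.4 to 297, 49.8 to 84.3 and 296 to 411 CPM in the others. These values moved together in 1 animal, and their part in the low mitochondrial levels was not tested. In bulk blood, fewer cells of a type and less RNA per cell cannot be told apart.

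Counting error was small beside these differences, since the deposited counts of a member were at least 1068 and the counting CV at the median count was 0.515% for ND1 to 2.41% for ND4L. On the log2 CPM scale, the standard deviations over 20 cows were 0.10 (ND1) to 0.16 (ND4L). They fell between percentiles 13.2 and 35.8 of the 16269 genes with enough counts, whose median was 0.22. Among the 4092 genes at or above the level of ND4L, the median was 0.12, and ND1 and ND4 lay below it and the other 5 genes above.

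Levels of different genes were compared per kilobase of annotated gene length. The lengths were 956 bases for ND1, 1042 for ND2, 346 for ND3, 1378 for ND4, 297 for ND4L, 1821 for ND5 and 528 for ND6. The order of the medians, in CPM per kilobase, was ND1 (1175), ND6 (762), ND4 (478), ND5 (422), ND3 (402), ND2 (305) and ND4L (177). ND6, alone on its strand, was therefore 2nd after division by length. In the plot of levels by gene, each cow's position is shown around the median.

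**Figure D1:**
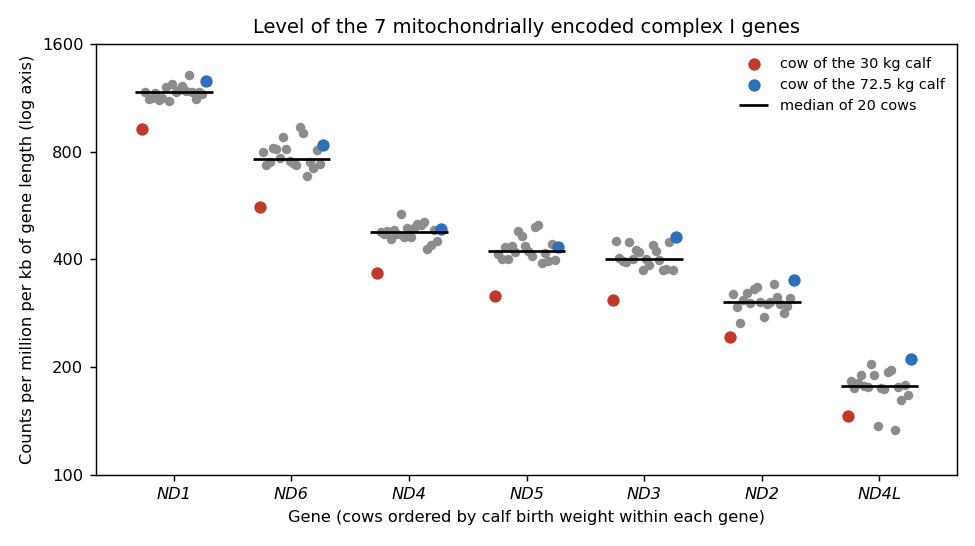
Level of the 7 complex I genes in CPM per kilobase of gene length (log axis), with 1 point per cow ordered by calf BW within each gene and a line at the median of 20 cows. The recipient of the 30 kg calf (red) lies below all others in 6 genes, and for ND4L the recipients of the 43 kg and 50 kg calves lie lower still.

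Each step in this order was tested within the cows, as the log2 ratio of the 2 neighbouring genes in the same library. ND1 exceeded ND6 by a mean of 0.59 ± 0.13 (SD) on the log2 scale, ND6 exceeded ND4 by 0.72 ± 0.11, ND3 exceeded ND2 by 0.41 ± 0.10, and ND2 exceeded ND4L by 0.80 ± 0.16, in 20 of 20 cows each (two-sided permutation test with sign flips over 6 steps, adjusted p = 1.5e-05, from the smallest p that 100000 resamples can give). ND4 exceeded ND5 by 0.15 ± 0.090 in 19 of 20 cows (permutation test, adjusted p = 3.6e-05). The closest neighbours were ND5 and ND3, which differed by 0.069 ± 0.100 with ND5 higher in 14 of 20 cows (permutation test, adjusted p = 0.00716). All 6 steps remained past the threshold without the recipient of the 30 kg calf. These tests show that a ratio repeats over cows, not that full annotated length is the right divisor. The length of the sequenced fragments was not taken into account, which bears most on the short genes ND3 and ND4L and on small steps. Without division by length the order was ND1, ND5, ND4, ND6, ND2, ND3 and ND4L.

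Among the mitochondrial mRNAs, the complex I genes were in the lower range per length. ATP6 had a median of 7493 CPM per kilobase, COX1 2344, CYTB 1624, COX3 1559 and COX2 1379, all above ND1, whereas ATP8 (457) lay between ND4 and ND5. The rRNAs 12S and 16S had 199.5 and 237 CPM per kilobase in these libraries, whose labels name polyA RNA, and varied 2.50- and 2.87-fold between cows. Every complex I gene varied less, from 1.42-fold for ND2 to 1.67-fold for ND6.

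Ratios between genes were steadier for some neighbours on the genome than for others. ND6 and ND5 lie next to each other on opposite strands, and their annotations share 17 bases. The ratio of ND6 to ND5 per length was 1.73 in the lowest cow, 1.82 at the median and 2.04 in the highest, with a CV of 4.28%. Of the 78 pairs of mitochondrial mRNAs, this pair had the smallest standard deviation of the log2 ratio (0.061), and it was the 2nd smallest without the recipient of the 30 kg calf, after ND4 with COX3. Whether reads were assigned by strand is not given in the sources used here, so reads from ND6 and from RNA of the other strand at this place cannot be told apart.

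ND4L and ND4, which share an RNA and 7 bases of annotation, did not keep a steady ratio. The ratio of ND4L to ND4 per length was 0.262 in the lowest cow, 0.376 at the median and 0.434 in the highest, with a CV of 10.9%. It was 0.262 in the recipient of the 50 kg calf and 0.279 in that of the 43 kg calf, and at least 0.355 in the other 18. With a standard deviation of 0.17 on the log2 scale, the pair ranked 68th of 78, and ATP6 with ATP8, the other pair on a common RNA, ranked 78th (0.24). The steadiest partner of ND4L was COX2 (0.093, rank 13), and COX2 had its own lowest values in the recipients of the 50 kg (705 CPM), 30 kg (743 CPM) and 43 kg (842 CPM) calves. How reads in an overlap, or fragments that reach from a gene into its neighbour on a common RNA, were assigned is not given in the sources used here. Their part in these ratios was not tested.

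**Figure D2:**
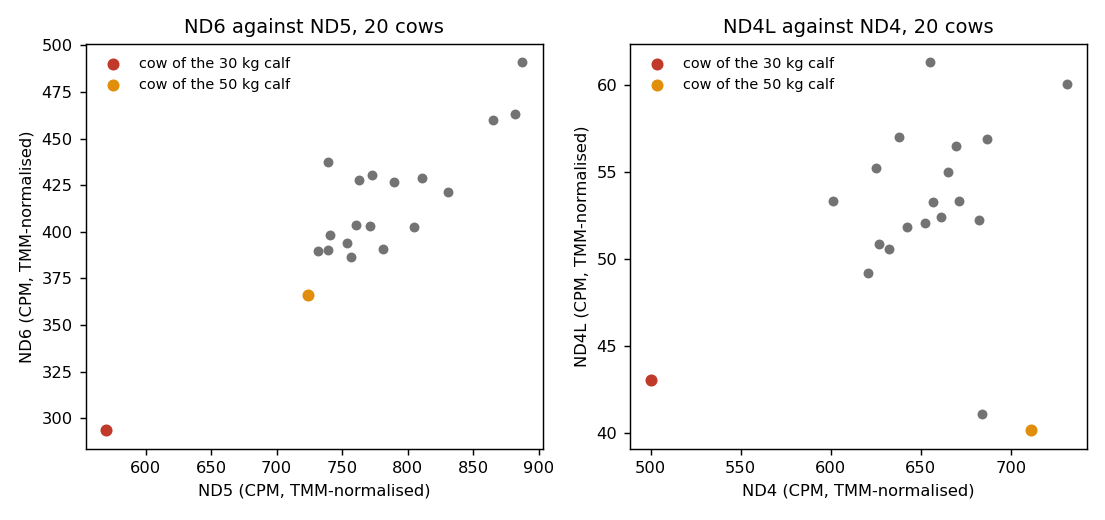
Levels in 20 cows (CPM, TMM-normalised) of ND6 against ND5 (left) and of ND4L against ND4 (right), 1 point per cow. ND6 and ND5 lie along a line, whereas the recipient of the 50 kg calf (orange, ND4L 40.1 CPM at ND4 711 CPM) and that of the 43 kg calf fall below the other cows for ND4L.

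Across the 20 cows the 7 genes varied together, but much of this rested on 1 animal. All 21 pairs had a positive Pearson r of log2 CPM, from 0.04 (ND1 with ND4L) to 0.92 (ND5 with ND6), with a median of 0.63. Of these, 18 had an adjusted permutation p below 0.05, and 8 did so by Spearman's rho. Without the recipient of the 30 kg calf, r ranged from -0.43 to 0.81 with a median of 0.36, and 2 of 21 pairs were past the threshold. The 2 pairs were ND5 with ND6 (r = 0.81) and ND4L with ND6 (r = 0.69).

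With all cows, ND5 and ND6 had r = 0.92 (permutation p = 1e-05, the smallest the test can give, adjusted p = 0.00021) and rho = 0.74 (permutation p = 0.00034), and r was 0.75 without the 2 cows farthest from the median of ND5. ND4L and ND6 had r = 0.72 (permutation p = 0.00031, adjusted p = 0.00294) and rho = 0.85 (permutation p = 1e-05), and r was 0.87 without the 2 cows farthest from the median of ND4L. ND1 and ND4 had r = 0.81 (permutation p = 0.00068, adjusted p = 0.00357) and rho = 0.58 (permutation p = 0.00871). Their r was 0.52 without the recipient of the 30 kg calf and 0.38 without those of the 30 kg and 50 kg calves. ND4 and ND4L had r = 0.24 (permutation p = 0.282) and rho = 0.20 (permutation p = 0.398). Their r was -0.12 without the recipient of the 30 kg calf, 0.49 without that of the 50 kg calf and 0.16 without both. For 21 of 21 pairs, the lowest r in leaving out 1 cow came from leaving out the recipient of the 30 kg calf. As shares of the mitochondrial mRNA, 2 pairs were past the threshold. Shares remove a change common to all 13 genes, but a larger share of 1 gene also lowers those of others. These effects on r cannot be told apart here.

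**Figure D3:**
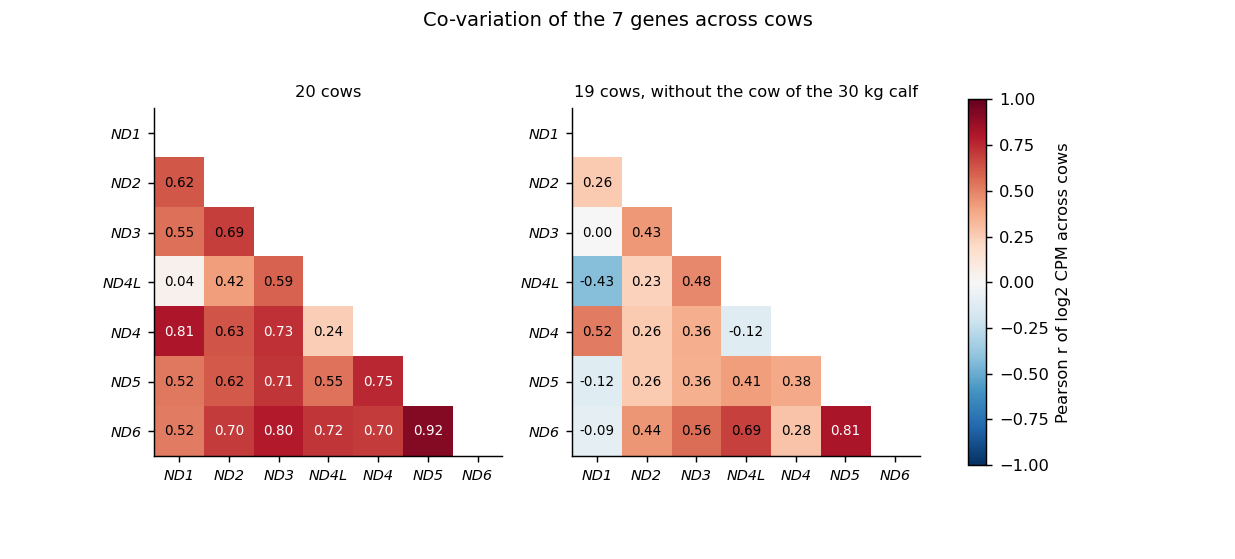
Pearson r of log2 CPM for the 21 pairs of complex I genes, in 20 cows (left) and in 19 cows without the recipient of the 30 kg calf (right), on a colour scale from -1 (blue) to 1 (red). On the left r runs from 0.04 to 0.92, and on the right from -0.43 to 0.81 with ND5 and ND6 the highest.

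Blood cell marker scores and library size were compared with each gene over 63 relations. None had an adjusted permutation p below 0.05 (the smallest was 0.0511, for 6 relations). ND4L had r = 0.63 with the T cell score (permutation p = 0.00306 for r and 0.0405 for rho = 0.47), and the recipients of the 43 kg and 50 kg calves, lowest in ND4L, also had the lowest T cell scores (-1.58 and -1.11), whose part in this was not tested. ND1 had r = 0.58 with the natural killer cell score (permutation p = 0.00393 for r and 0.00267 for rho = 0.64). Without the 2 recipients farthest from the median of the score, these r were 0.52 and 0.47. The rest of the 6 relations at 0.0511 were those of the log2 total count with ND2, ND4, ND5 and ND6. Their r were 0.593, 0.586, 0.595 and 0.591 (permutation p = 0.00487, 0.00423, 0.00403 and 0.0043), respectively. Their rho were 0.47, 0.40, 0.38 and 0.48 (permutation p = 0.0370, 0.0782, 0.0970 and 0.0338). The log2 total count had r of 0.20 to 0.59 with the 7 genes, and 0.012 to 0.42 without the recipient of the 30 kg calf. Erythroid scores had r between -0.25 and -0.014.

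Of the genes outside the mitochondrial genome, those whose log2 CPM followed the summed complex I level most closely over 20 cows were HSD17B13 (r = 0.80), LOC112445001 (0.78), PINLYP (0.77), RASSF6 (0.76) and DAG1 (0.74). The lowest were DHX58 (-0.86), ADAR (-0.85) and MX2 (-0.83), and without the recipient of the 30 kg calf their r was -0.42, -0.40 and -0.32, and they were no longer the lowest. The first 4 genes named had 0 counts in the recipient of the 30 kg calf and medians of 0.332 to 0.853 CPM in the others, so this likeness is at the limit of detection. Without that cow HSD17B13 ranked 2204th of 16269 genes. The closest were then PDHX (r = 0.73), TMEM30A (0.71), HADHB (0.71), IL10 (0.69) and RASAL3 (0.68). These were the highest of 16253 genes, picked after the values were seen. Over all 20 cows their r were 0.56, 0.50, 0.20, 0.28 and 0.42, respectively. PDHX is a component of the pyruvate dehydrogenase complex and HADHB an enzyme of mitochondrial fatty acid oxidation, but a common function of these genes was not tested. IL10 was also low, with a mean log2 CPM of -0.21 over 20 cows, beside -0.49 for HSD17B13. Over the 20 cows, the 37 nuclear complex I subunits had r of -0.29 to 0.38 with the summed level. Their median was -0.052, beside a median of -0.0056 for 16253 genes outside the mitochondrial genome. The r of this list are not given without the recipient of the 30 kg calf.

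The relation to calf BW was fitted in 19 cows, without the recipient of the 72.5 kg calf, as the study did. None of the 7 genes was called at an adjusted p below 0.05 with edgeR, nor was any of the 16206 genes tested (0.0%). DESeq2 called none of the 7 and 189 of 15478 genes (1.22%), and limma with voom called none of either. At an unadjusted p below 0.05, edgeR had 1 of 7 genes, ND1, beside 13.9% of all genes, and DESeq2 1 of 7 beside 10.6%, so the share of the complex I genes was close to that of the genome. The slope was positive for 6 of 7 genes, beside 46.6% of all genes, and its median was 0.0034 on the log2 scale per kg, beside -0.00072 for all genes. The 7 genes are correlated across cows, and without the recipient of the 30 kg calf 2 of 7 slopes were positive, with a median of -0.0018.

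**Figure D4:**
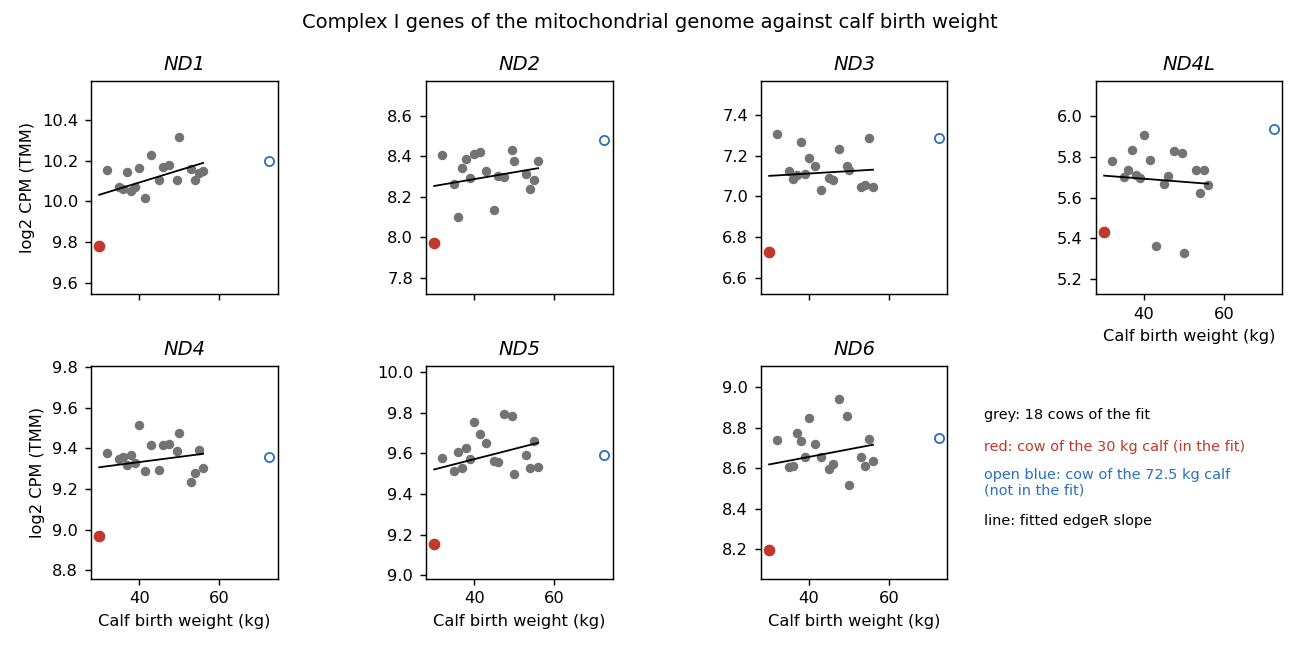
Log2 CPM (TMM) of each complex I gene against calf BW in kg, 1 point per cow, with the fitted edgeR slope as a line. The recipient of the 30 kg calf (red) lies below the line in all 7 panels, and the recipient of the 72.5 kg calf (open blue) was not in the fit.

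ND1 had the largest slope, 0.0060 ± 0.0028 (SE) per kg (edgeR quasi-likelihood p = 0.0433, adjusted p = 0.344). Over the 26 kg between the lightest and heaviest calf of the fit, this equals a 1.12-fold higher level with a 95% interval of 1.004 to 1.24. Without the recipient of the 30 kg calf the slope was 0.0026 ± 0.0024 (edgeR, p = 0.291), and it was 0.0051 with all 20 cows (edgeR, p = 0.0277). The adjusted p over the other alternatives that kept the 19 cows or added the 20th was at least 0.253.

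ND5 had a slope of 0.0050 ± 0.0040, ND6 of 0.0037 ± 0.0045, ND2 of 0.0034 ± 0.0035, ND4 of 0.0025 ± 0.0034, ND3 of 0.0012 ± 0.0037 and ND4L of -0.0015 ± 0.0046 (edgeR, adjusted p = 0.620 to 0.927, n = 19). Their 95% intervals included 0, and over 26 kg the bounds allowed a change between 0.819-fold (ND4L) and 1.27-fold (ND5). ND2 is one of the genes that the study selected on these cows to predict BW. That choice used models of many genes on splits of all 20 cows, among genes that changed with gestational age. The slope of ND2 alone is another measure. It was -0.00042 without the recipient of the 30 kg calf and 0.0048 with all 20 cows (edgeR, p = 0.0708), in which the recipient of the 72.5 kg calf had the highest ND2. ND4L changed from a negative slope in 19 cows to 0.0030 in 20, since its highest value was also in that cow.

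The other 6 mitochondrial mRNAs gave 2 positive and 4 negative slopes, and none had an unadjusted p below 0.05. CYTB, the mitochondrially encoded subunit of complex III, had the lowest, -0.0052 ± 0.0051 (edgeR, adjusted p = 0.699). Without the recipient of the 30 kg calf it was -0.011 ± 0.0043 (edgeR, p = 0.0158, adjusted p = 0.265), and COX3, a subunit of cytochrome oxidase, had -0.0060 ± 0.0024 (edgeR, p = 0.0208, adjusted p = 0.286). The slopes were 0.0043 for ATP6, 0.0036 for ATP8, -0.00091 for COX1 and -0.0019 for COX2, with unadjusted p between 0.265 (ATP6) and 0.716 (COX1). The rRNAs had slopes of 0.0098 ± 0.010 (12S) and 0.010 ± 0.012 (16S).

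All 37 nuclear complex I subunits listed were tested, and none was called (edgeR, adjusted p at least 0.312). Their slopes were negative in 29 of 37 (78.4%), beside 53.4% of all genes, with a median of -0.0038. At an unadjusted p below 0.05 there were 5 (13.5%), close to the 13.9% of all genes. All 5 slopes were negative, and of all 16206 genes tested 7.08% had both a negative slope and such a p. DESeq2 had 3 (8.11%), beside 10.6% of all genes. With edgeR, the count was 0 without the recipient of the 37 kg calf, 2 without that of the 36 kg or the 49.5 kg calf, 3 without that of the 32, 38, 50, 53, 54 or 55 kg calf, and 8 without that of the 47.4 kg calf. The smallest p-values were those of NDUFA6 (-0.0071 ± 0.0031, edgeR p = 0.0333), NDUFB5 (-0.0091 ± 0.0040, p = 0.0336) and NDUFB8 (-0.0068 ± 0.0030, p = 0.0338), all accessory subunits. The count of negative slopes was 26 to 32 in leaving out each cow, with the 32 reached without the recipient of the 30 kg calf. These genes share cows and pathways and are not independent.

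Of 18 assembly factors, 16 were tested and 10 slopes were negative (62.5%, beside 53.4% of all genes), the median being -0.0016. At an unadjusted p below 0.05 edgeR had 1 (6.25%), beside 13.9% of all genes. NDUFAF4, needed to build complex I, had -0.020 ± 0.0071 (edgeR, p = 0.00931, adjusted p = 0.214), while NDUFAF2 had 0.015 ± 0.0094 and NDUFAF3 -0.0097 ± 0.0070. Of 28 genes that transcribe, process or protect mitochondrial RNA, 25 were tested and 18 slopes were negative, the median being -0.0030. FASTKD3, an RNA-binding protein that bears on the level of several mitochondrial mRNAs, had the smallest p of all the lists, with -0.030 ± 0.0072 (edgeR, p = 0.000506, adjusted p = 0.109). It was the 1 gene of the 3 lists that DESeq2 called, and DESeq2 called 1.22% of all genes. TBRG4, of the same family, had -0.0094 ± 0.0029 (p = 0.00428) and MTERF2, a mitochondrial transcription terminator family member, -0.023 ± 0.0075 (p = 0.00684), with edgeR adjusted p of 0.181 and 0.199. Neither family went 1 way: FASTKD2 had 0.011 ± 0.0066 (edgeR, p = 0.0995) and MTERF3 0.0066 ± 0.0036 (edgeR, p = 0.0823). FASTK, FASTKD1, MTERF1 and MTERF4 had negative slopes with larger p.

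**Figure D5:**
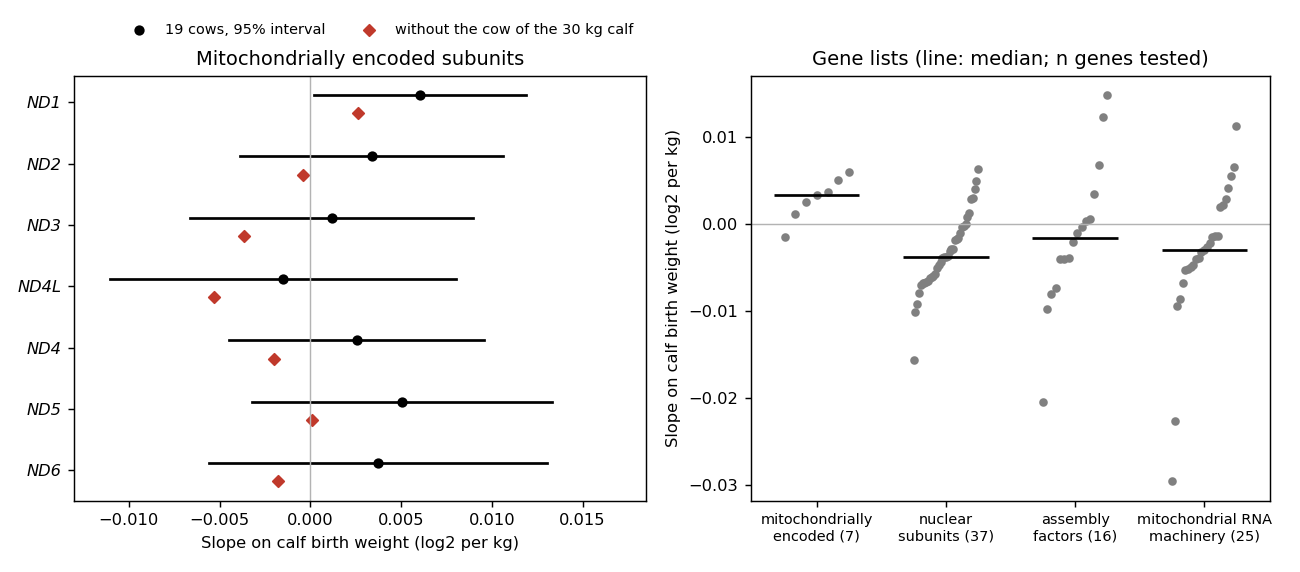
Left: slope on calf BW (log2 per kg) of the 7 complex I genes with 95% intervals in 19 cows (black) and without the recipient of the 30 kg calf (red). Right: slopes of all tested genes in 4 lists with their medians as lines, 0.0034 for the mitochondrially encoded and -0.0038 for the nuclear subunits.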

How the data were processed

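Whole blood of 20 cows was collected into Tempus tubes, which stabilise RNA. The labels name a SMARTer Stranded kit and the study's methods a TruSeq stranded mRNA kit. Per the labels and methods, the authors checked reads with FastQC 0.11.9, trimmed them with Trimmomatic, aligned them with STAR 2.7.0b to ARS-UCD1.3 and counted them per gene with featureCounts of Subread 2.0.3. They deposited raw counts per Entrez identifier. The strand setting and the handling of reads that match more than 1 place, such as nuclear copies of mitochondrial sequence, are not given in the sources used here, so the levels are uncertain to that extent. All 37063 identifiers had a symbol in the RefSeq table of ARS-UCD2.0, which also gave the gene lengths. These stood in for coding lengths from proteins, which were planned.

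Slopes on BW came from edgeR 4.0.16 (R 4.3.3), with TMM scaling and the quasi-likelihood test, in 19 cows keeping genes that reached 10 counts in 5 or more cows, and p-values were adjusted over all genes (Benjamini-Hochberg). DESeq2 1.42.0, limma 3.58.1 with voom, other scalings, filters and covariates, BW ranks, all 20 cows and leaving out each cow were alternatives. Correlations and level ratios used log2 CPM (prior count 2) or CPM per kilobase in 20 cows, with two-sided permutation tests of 100000 resamples in Python 3.11.15 with numpy 2.4.6, scipy 1.17.1 and pandas 2.3.3. Figures were drawn with matplotlib 3.10.9. Marker scores were mean z-scores of fixed lists. The analyses of pairs, ratios, scores and likeness without the recipient of the 30 kg calf, and without single other cows, were added after seeing the data.

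The fit was tested on simulated data of 19 cows in which 200 genes changed by 0.06 per kg. Of these, edgeR recovered 76.5% with 2.55% of calls false, DESeq2 78.5% with 10.3% and voom 77.0% with 2.53%. Slopes of the size seen in the complex I genes were not simulated. No 2 libraries were repeats, since the lowest chi-square per degree of freedom over 190 pairs was 12.2. No sequencing batch is given. The p-values measure the spread between these cows.

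The members and lists were chosen with earlier results of these data known. Named genes were all members, the other mitochondrial mRNAs and rRNAs, the 3 smallest p of each pathway list, and the 5 most and 3 least like the summed members. The genes closest without the recipient of the 30 kg calf, and the other tested members of the families of FASTKD3 and MTERF2, were named after their values were seen.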

Additional observations from a re-analysis of the deposited data

How the results depend on the processing

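No complex I gene was called on BW under any of the 34 alternatives run for each gene, with a lowest adjusted p of 0.233, and 10 of 238 slopes changed sign. In leaving out 1 cow, the slopes per kg ran from 0.0026 to 0.0074 for ND1, -0.00042 to 0.0052 for ND2, -0.0037 to 0.0038 for ND3, -0.0020 to 0.0039 for ND4, -0.0053 to 0.00047 for ND4L, 0.000096 to 0.0070 for ND5 and -0.0018 to 0.0051 for ND6. The lowest of each came without the recipient of the 30 kg calf, for which DESeq2 gave -0.0032 for ND3, -0.0015 for ND4 and -0.0013 for ND6. All 20 cows gave 0.0030 for ND4L and 0.00035 for COX2. In leaving out 1 cow, COX1 ran from -0.0039 to 0.00024, COX2 from -0.0062 to 0.000093 and ATP8 from -0.0047 to 0.0063. Calls among the nuclear genes that transcribe, process or protect mitochondrial RNA rose from 0 to 1 with DESeq2 and ranged from 0 to 1 in leaving out 1 cow, with 1 without that of the 32 kg calf. Pairs past the threshold fell from 18 to 2 as shares of mitochondrial mRNA and to 2 without the recipient of the 30 kg calf, and were 19 on plain totals. With 19 cows, the 95% interval of the slope included 0 for every complex I gene but ND1. The counting CV at the median count was 0.515% (ND1) to 2.41% (ND4L), and no complex I gene was called with library size as a covariate. Cows could not be paired in the fit on BW because all of them form 1 group, whereas levels of neighbouring genes were compared within each cow.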
